A study of Homo sapiens with 16 samples.

Results

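The MYC, MAX and MXD network is a set of 10 genes: MYC, MYCN, MYCL, MAX, MXD1, MXD3, MXD4, MXI1, MNT and MGA. They were taken by symbol from a table of 60676 genes, each matched exactly 1 row, and 9 of the 10 passed the filter on low counts that kept 15573 genes for testing. RNA-seq was made from HCT116, a human colorectal carcinoma line, in 8 groups with 2 libraries each. The 8 groups were shNELFE cells, in which an shRNA targets NELFE, under EPZ-5676 with HMBA, HMBA, EPZ-5676 or DMSO, and shCTL cells, with a control shRNA, under the same 4 treatments. NELFE is a subunit of NELF, a complex that keeps RNA polymerase II paused soon after initiation. EPZ-5676 (pinometostat) blocks DOT1L, which methylates histone H3, and HMBA (hexamethylene bisacetamide) frees the kinase P-TEFb from its inhibitory complex. The labels give no dose, no time of treatment and no shRNA sequence, and do not say whether replicates were separate cultures. Most groups have 1 library in the main fits below. A p-value there reflects mainly departures from a model in which the effects of shRNA and compounds add. Any spread between libraries may be technical.

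MYC proteins bind DNA only as dimers with MAX, at the E-box CACGTG and related sites, and there promote transcription of genes for growth, ribosome production and division. The MXD proteins, MXI1, MNT and MGA also pair with MAX, compete for the same sites and bring corepressors, so the levels of these antagonists relative to MYC are thought to set the output of shared targets. In colorectal cancer MYC is a well known target of WNT signalling, and MXD1 is known for its rise when cells leave the cycle and differentiate.

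Promoter windows were available for 9 of the 10 members, as 14 RefSeq windows on GRCh38.p14 that run from 250 bases before to 50 bases after an annotated start. MYC itself had no window, so its promoter was not searched. The E-box CACGTG, which reads the same on both strands, is the site the network itself binds, so windows that hold it are of interest here. It was present in 2 of the 14 windows, those of MXD4 and MNT, and in 7.26% of all 35116 windows in the table. MXD4 and MNT moved in opposite directions with HMBA, as described below, and MXD1, which rose most, had no CACGTG in its window. The related motif CACGCG, searched on both strands, was found in 3 member windows (MXD3, 1 of MXI1 and 1 of MGA) and in 11.4% of all windows, and TATAAA in none of the 14 and in 11.5% of all. The bases before the start are shown for these 3 genes, 5′ to 3′ on the gene's strand, with CACGTG in capitals.
MXD4, chr4:2262110-2262359, minus strand: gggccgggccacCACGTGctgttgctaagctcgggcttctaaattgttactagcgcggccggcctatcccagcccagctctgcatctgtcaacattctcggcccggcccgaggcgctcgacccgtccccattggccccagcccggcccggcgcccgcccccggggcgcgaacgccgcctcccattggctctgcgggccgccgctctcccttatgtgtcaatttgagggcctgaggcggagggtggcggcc
MNT, chr17:2401061-2401310, minus strand: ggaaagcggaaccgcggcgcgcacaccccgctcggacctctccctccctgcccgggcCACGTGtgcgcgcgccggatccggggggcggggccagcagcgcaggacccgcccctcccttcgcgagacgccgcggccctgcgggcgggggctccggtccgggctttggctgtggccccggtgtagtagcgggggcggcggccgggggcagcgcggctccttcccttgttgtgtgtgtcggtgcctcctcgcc
MXD1, chr2:69914859-69915108, plus strand: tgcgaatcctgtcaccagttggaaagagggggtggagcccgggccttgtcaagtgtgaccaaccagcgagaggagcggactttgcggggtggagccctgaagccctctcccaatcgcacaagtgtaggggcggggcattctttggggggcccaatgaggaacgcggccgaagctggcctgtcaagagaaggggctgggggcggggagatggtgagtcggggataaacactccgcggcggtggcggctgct
The E-box began 238 bases before the start of MXD4 and 193 bases before that of MNT. Such a match describes the letters only.

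The results rest on 9 libraries: the 8 numbered 2 and replicate 1 of shNELFE with both compounds. In these 9 NELFE, the targeted gene, had 12.8 to 21.7 CPM (read counts scaled to the library total) in the 5 shNELFE libraries and 68.1 to 81.2 CPM in the 4 shCTL libraries. The P-TEFb inhibitor gene HEXIM1, which HMBA is known to induce, had 333 to 386 CPM in the 5 libraries with HMBA and 67.1 to 82.1 CPM in the 4 without. The other 7 libraries, all numbered 1, stood apart: on totals scaled over all 16 libraries NELFE was 81.6 to 269 CPM and HEXIM1 42.9 to 73.9 CPM in them, also where the label reads shNELFE or HMBA. Their correlation with the 9 in log2 CPM over genes was 0.735 to 0.805, while the 9 had 0.936 to 0.991 among themselves. Results with all 16 libraries stand beside those of the 9 below. Total counts were 13428893 to 17867037 in the 9 and up to 21319666 in the 16, and 3 counts corresponded to 0.141 to 0.223 CPM, a floor for counting error only. On totals scaled over all 16 libraries, epithelial markers, 12 in the list, summed to 4725 to 8051 CPM in the 9. Of these, 10 of 12 were above 3 counts in some library. VIL1 and the colon transcription factor CDX1 were not above 3 counts in any of the 9. The lack of CDX1 counts in the 5 libraries with HMBA is thus a value near the floor. Because these are bulk libraries, fewer cells of a kind and less RNA per cell cannot be told apart.

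With HMBA most of the network changed. MYC fell 15.8-fold, the antagonists MNT and MGA fell with it, and MYCL, MXD1, MXD3, MXD4 and MXI1 rose, with MXD1 up 7.67-fold. MAX, the shared partner, did not pass the test. In counts, 8 of the 9 tested members were called by edgeR's quasi-likelihood test at a Benjamini-Hochberg adjusted p under 0.05, 5 higher and 3 lower, where 61.7% of all tested genes were called, 30.4% higher and 31.3% lower. Of the 9 tested members, 5 were called with a change of at least 2-fold. Of all tested genes, 11.9% were called at least 2-fold higher and 13.7% at least 2-fold lower. The HMBA and no-HMBA libraries did not overlap for 7 of the 9, where 49% of all genes showed no overlap. The median log2 fold change was 0.50 over the 9 members and 0.03 over all tested genes. Each comparison set 5 libraries with HMBA against 4 without it, and shRNA and EPZ-5676 were terms of the same additive fit, which left 5 residual degrees of freedom.

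**Figure D1:**
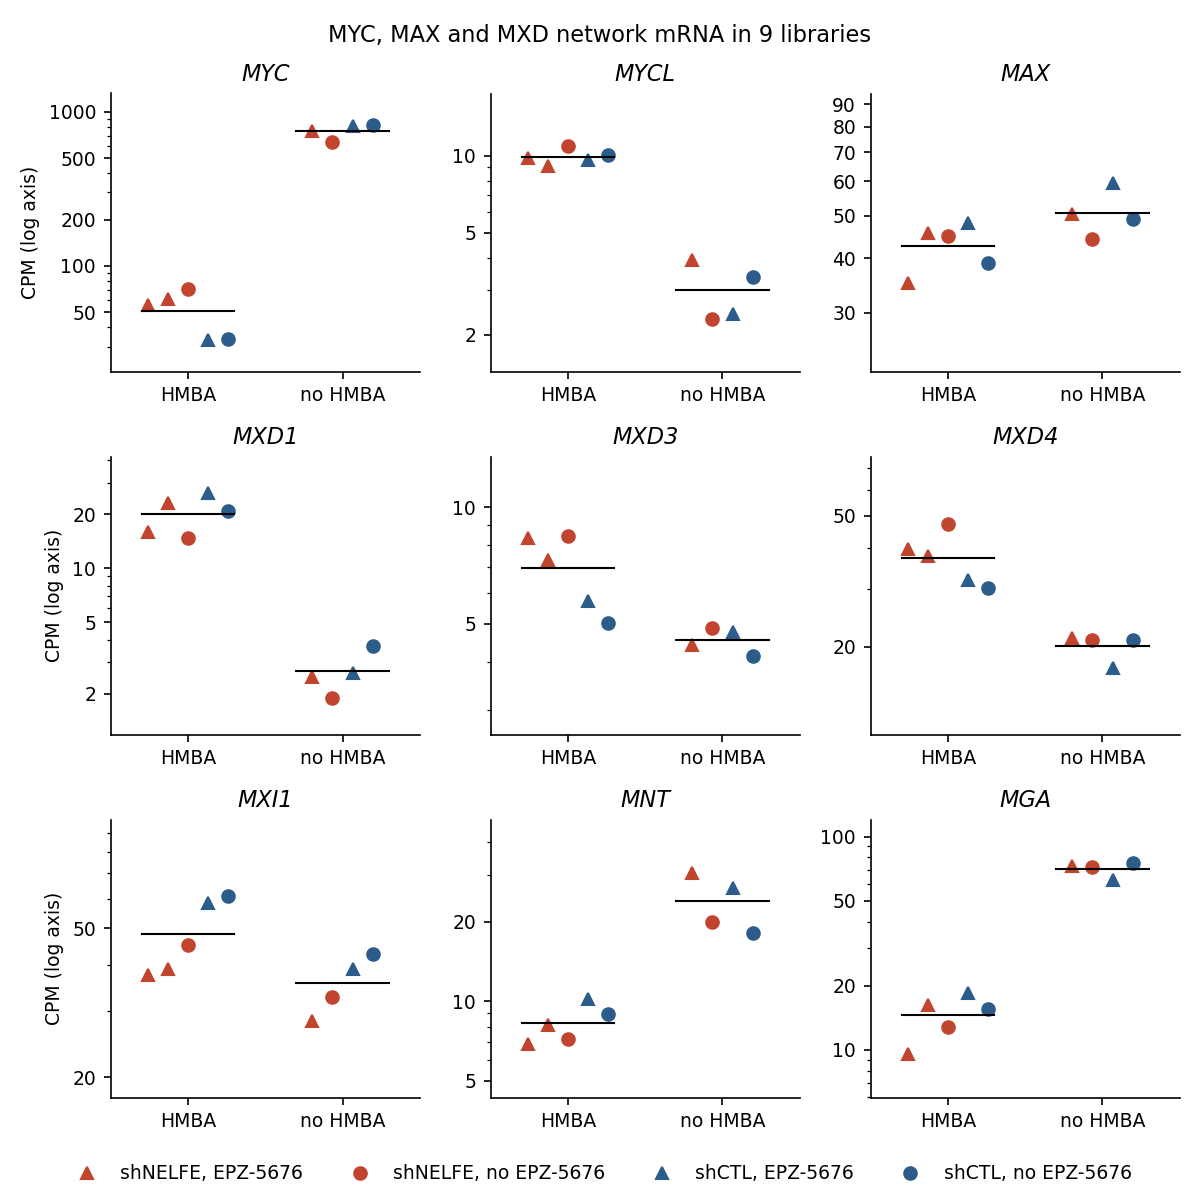
Level of each tested network gene in CPM on a log axis, in the 5 libraries with HMBA (left) and the 4 without (right), with red for shNELFE, blue for shCTL, triangles for EPZ-5676, circles for no EPZ-5676 and lines for the mean. MYC, MNT and MGA are lower with HMBA, MYCL, MXD1, MXD3 and MXD4 are higher, and the groups overlap for MAX and MXI1.

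Among the MYC genes, MYC (ENSG00000136997, hg38 chr8:127735434-127741434, plus strand) was by far the most abundant. It had 55.5 and 60.9 CPM in the shNELFE libraries given both compounds and 71.0 CPM in the shNELFE library given HMBA, and 33.05 CPM with both compounds and 33.65 CPM with HMBA in shCTL. Without HMBA it had 749 CPM in shNELFE with EPZ-5676, 640.9 CPM in shNELFE with DMSO, 812 CPM in shCTL with EPZ-5676 and 820.3 CPM in shCTL with DMSO. All 5 libraries with HMBA lay far below all 4 without, and within the HMBA group both shCTL libraries lay below the 3 shNELFE libraries. The fitted change was -3.98 ± 0.21 (log2, SE), a 15.8-fold fall, with an edgeR adjusted p of 8.56e-08. On means, MYC averaged 50.8 ± 16.9 CPM with HMBA (SD, n = 5) and 755 ± 82.9 CPM without (SD, n = 4).

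MYCL (ENSG00000116990, chr1:39895426-39902256, minus strand), the family member first found in small cell lung cancer, moved the other way at a low level. It had 9.13 to 10.9 CPM in the 5 libraries with HMBA and 2.29 to 3.92 CPM in the 4 without, with no overlap and higher in 4 of 4 matched pairs. This was a rise of 1.73 ± 0.18 (log2, SE; edgeR adjusted p 8.31e-06), which rests on 883 MYCL counts summed over the 9 libraries. MYCN (ENSG00000134323, chr2:15940564-15947007, plus strand), the neuroblastoma oncogene, had 1 count in all, in shCTL with both compounds, and was below the count filter. Per kilobase of exon MYCL averaged 1.96 ± 0.132 CPM with HMBA (SD, n = 5) and 0.592 ± 0.154 CPM without (SD, n = 4), while MYC averaged 16.9 ± 5.62 CPM per kilobase with HMBA and 252 ± 27.6 CPM per kilobase without.

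MAX (ENSG00000125952, chr14:65006174-65102695, minus strand), the partner that all the other members share, had 35.2 to 48.1 CPM with HMBA and 44.2 to 59.6 CPM without. The groups overlapped, and MAX was lower with HMBA in 3 of 4 pairs. Its fitted change of -0.24 ± 0.11 (log2, SE) had an edgeR adjusted p of 0.0774. MAX was called lower without shNELFE HMBA replicate 2 (adjusted p 0.03), with the replicate number as a block (0.0487) and without scaling of library totals (0.00848).

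The MXD genes and MXI1 encode the short antagonists that recruit SIN3 and histone deacetylases. MXD1 (ENSG00000059728, chr2:69897688-69942945, plus strand) had 15.9 and 23.2 CPM in shNELFE with both compounds, 14.7 CPM in shNELFE with HMBA, 26.2 CPM in shCTL with both compounds and 20.7 CPM in shCTL with HMBA. Without HMBA it had 2.49 CPM in shNELFE with EPZ-5676, 1.89 CPM in shNELFE with DMSO, 2.62 CPM in shCTL with EPZ-5676 and 3.69 CPM in shCTL with DMSO. The lowest library with HMBA was thus well above the highest without it. The fitted rise was 2.94 ± 0.18 (log2, SE; edgeR adjusted p 2.11e-07), the largest rise among the 9 tested members.

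MXD4 (ENSG00000123933, chr4:2247432-2262294, minus strand) had 30.2 to 47.4 CPM in the libraries with HMBA and 17.3 to 21.3 CPM in those without, a rise of 0.87 ± 0.11 (log2, SE; edgeR adjusted p 3.83e-05). MXD3 (ENSG00000213347, chr5:177301461-177312757, minus strand), the MXD gene known for its expression in dividing cells, had 5.02 to 8.45 CPM with HMBA and 4.15 to 4.87 CPM without, a rise of 0.56 ± 0.15 (edgeR adjusted p 0.00811). The MXD3 groups were close, and the call was lost without shNELFE EPZ-5676 replicate 2 (adjusted p 0.0574) and without scaling of library totals (0.103). MXD3 exons share 22.5% of their bases with PRELID1 on the other strand and 18% with RAB24 on the same strand, and the strand setting of the counts is not given, so its level may hold reads of these genes.

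MXI1 (ENSG00000119950, chr10:110207605-110287365, plus strand) had 37.5 to 61.0 CPM with HMBA and 28.2 to 42.7 CPM without. These ranges overlapped, yet MXI1 was higher with HMBA in 4 of 4 pairs that matched in shRNA and EPZ-5676. The rise was 0.50 ± 0.08 (log2, SE; edgeR adjusted p 0.000324), and it was lost without scaling of library totals (adjusted p 0.0594), a change that moved the median of all genes by -0.26 (log2) and the share of higher calls to 30.7%, against 49.3% with scaling.

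The large antagonists fell. MNT (ENSG00000070444, chr17:2384060-2401118, minus strand), a broadly expressed MAX-binding repressor, had 6.89 and 8.11 CPM in shNELFE with both compounds, 7.16 CPM in shNELFE with HMBA, 10.2 CPM in shCTL with both compounds and 8.93 CPM in shCTL with HMBA. Without HMBA the values were 30.5 CPM in shNELFE with EPZ-5676, 20.0 CPM in shNELFE with DMSO, 26.9 CPM in shCTL with EPZ-5676 and 18.1 CPM in shCTL with DMSO. The fall was 2.90-fold (log2 -1.53 ± 0.15, SE; edgeR adjusted p 5.15e-06), with no overlap. MNT shares 12.2% of its exon bases with an antisense transcript, AC006435.1.

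MGA (ENSG00000174197, chr15:41621224-41773081, plus strand), the large T-box and MAX-binding scaffold of the PRC1.6 repressor complex, had 9.55 and 16.2 CPM in shNELFE with both compounds, 12.9 CPM in shNELFE with HMBA, 18.5 CPM in shCTL with both compounds and 15.5 CPM in shCTL with HMBA. Without HMBA its values were 72.9 CPM in shNELFE with EPZ-5676, 72.3 CPM in shNELFE with DMSO, 62.9 CPM in shCTL with EPZ-5676 and 75.3 CPM in shCTL with DMSO. No library with HMBA came near those without. The fall was 4.82-fold (log2 -2.27 ± 0.16, SE; edgeR adjusted p 4.79e-07), the largest among the members after that of MYC.

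**Figure D2:**
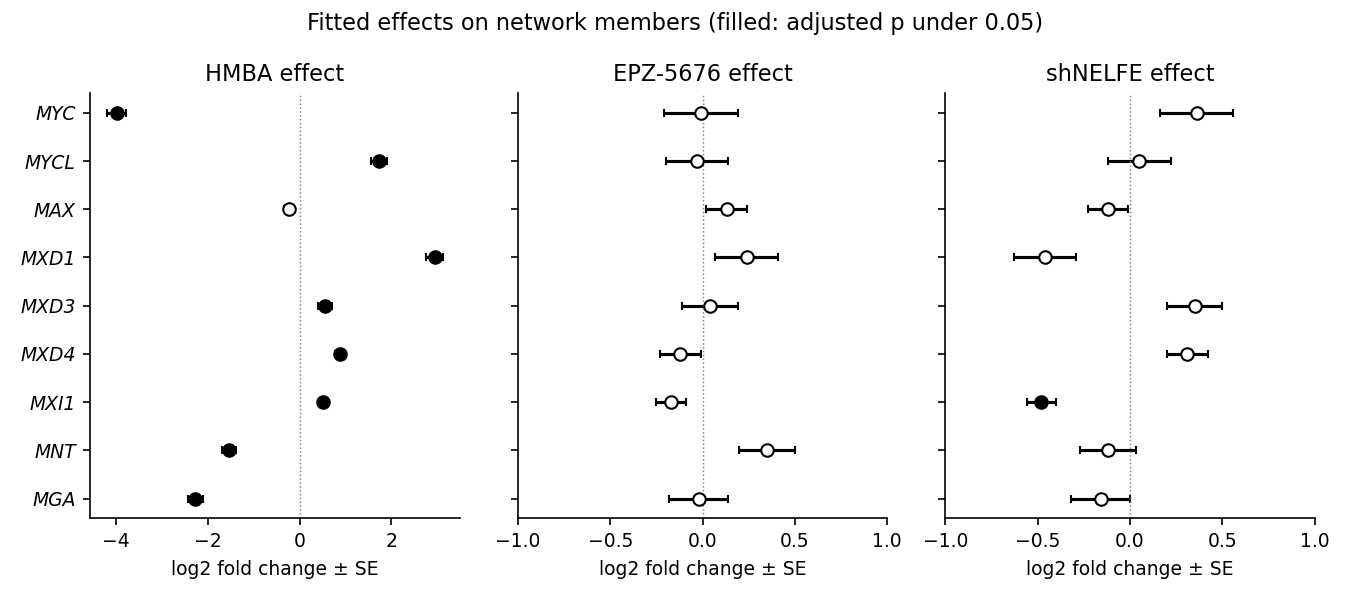
Fitted log2 fold change of each tested network gene with its SE, for HMBA (left), EPZ-5676 (middle) and shNELFE (right), filled where the edgeR adjusted p was under 0.05, with a wider axis in the left panel. With HMBA 8 of 9 genes are filled, with EPZ-5676 none, and with shNELFE MXI1 alone.

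Set on a common scale per kilobase of exon, the order of the members changed with HMBA. In the libraries with HMBA the mean order was MYC, MXI1, MAX, MXD4, MXD1, MYCL, MXD3, MNT and MGA, and the ranges of MYC (11.0 to 23.6 CPM per kilobase) and MXI1 (8.14 to 13.2), of MXI1 and MAX (7.94 to 10.9), of MXD3 and MNT, and of MNT and MGA overlapped. Without HMBA the order was MYC, MAX, MXI1, MGA, MXD4, MNT, MXD3, MYCL and MXD1, where MXD4 and MNT overlapped and so did MYCL and MXD1. MGA was last of the 9 with HMBA at 0.823 ± 0.195 CPM per kilobase (SD, n = 5), and stood behind MYC, MAX and MXI1 alone without it at 4.01 ± 0.309 (SD, n = 4). In both shCTL libraries with HMBA, MXI1 exceeded MYC: 12.7 against 11.0 CPM per kilobase with both compounds and 13.2 against 11.2 with HMBA. With the longest transcript in place of all exons MXI1 was still above MYC in these libraries (16.9 against 14.0 and 17.6 against 14.2), while MXD3 and MYCL with HMBA and MNT and MXD4 without it changed places.

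The summed level of MYC, MYCL and MYCN was 12.9 to 25.8 CPM per kilobase in the 5 libraries with HMBA and 214 to 274 in the 4 without. The 6 antagonists summed to 19.2 to 24.7 CPM per kilobase with HMBA and 17.7 to 19.97 without, with overlapping ranges. Within that sum MXD1 (3.17 ± 0.765 CPM per kilobase with HMBA and 0.421 ± 0.118 without) and MXD4 (5.30 ± 0.965 with HMBA and 2.85 ± 0.268 without) took a larger place with HMBA. MGA and MNT took a smaller one, with MNT at 0.945 ± 0.153 CPM per kilobase with HMBA and 2.74 ± 0.665 without. The ratio of MYC genes to antagonists was 1.06 to 1.17 in the 3 shNELFE libraries with HMBA, 0.524 and 0.559 in the shCTL libraries with HMBA, and 12.1 to 14.4 in the 4 libraries without. With the longest transcript in place of all exons it was 0.923 and 0.943 in shNELFE with both compounds and 1.02 in shNELFE with HMBA, so that 2 of these 3 libraries fell below 1, and it was 0.485 and 0.518 in the shCTL libraries with HMBA and 10.5 to 12.5 in the 4 without. Relative to MAX alone, MYC was 1.01 to 2.33 with HMBA and 20.1 to 24.6 without. These are ratios of mRNA, and protein was not measured.

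**Figure D3:**
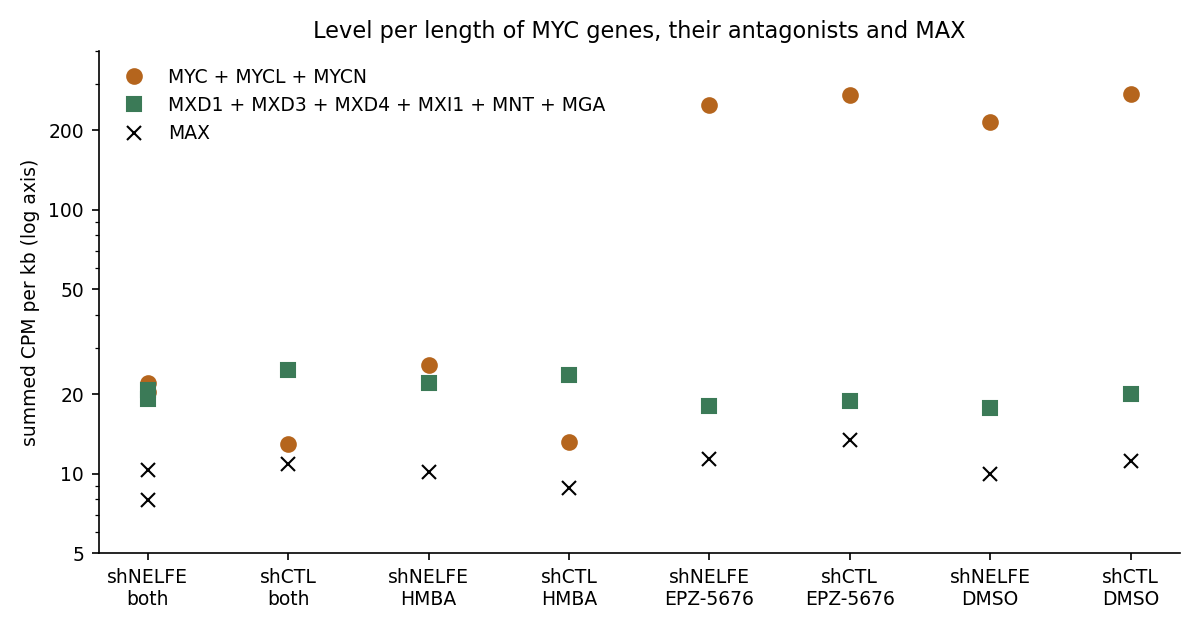
Summed CPM per kilobase of exon on a log axis in each of the 9 libraries, for the MYC genes (brown circles), the 6 antagonists (green squares) and MAX (crosses). The MYC genes lie close to the antagonists in the 3 shNELFE libraries with HMBA, below them in both shCTL libraries with HMBA, and above them by 12.1-fold to 14.4-fold without HMBA.

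Knockdown of NELFE left most members without a call. MXI1 was lower in shNELFE cells, the only call among the 9 tested members, where 2.25% of all genes were called and 1.55% were called lower. It had 37.5 and 38.9 CPM in shNELFE with both compounds, 45.0 CPM in shNELFE with HMBA, 28.2 CPM in shNELFE with EPZ-5676 and 32.7 CPM in shNELFE with DMSO, against 58.5 CPM in shCTL with both compounds, 61.0 CPM in shCTL with HMBA, 38.9 CPM in shCTL with EPZ-5676 and 42.7 CPM in shCTL with DMSO. Within each treatment the shNELFE level was below the shCTL level, by 1.53-fold with both compounds, 1.36-fold with HMBA, 1.38-fold with EPZ-5676 and 1.30-fold with DMSO. The fitted change was -0.48 ± 0.08 (log2, SE; edgeR adjusted p 0.0133). The call rests on a small margin: it was lost when any of the shNELFE DMSO, EPZ-5676 or HMBA libraries or the shCTL EPZ-5676, HMBA or both-compound libraries was left out (adjusted p 0.0537 to 0.0929, log2 -0.51 to -0.44).

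Of the other members, MXD1 was lower in shNELFE in 4 of 4 pairs (log2 -0.46 ± 0.17, SE; edgeR adjusted p 0.178), MXD4 was higher in 3 of 4 pairs (0.31 ± 0.11; 0.151) and MXD3 in 3 of 4 (0.35 ± 0.15; 0.241). MXD4 was called higher when shNELFE both-compound replicate 1 was left out (edgeR adjusted p 0.0484, where 12.5% of all genes were called). It was also called with the replicate number as a block, which sets that same library apart (0.0485, 12.3%). Without adjustment, 4 of the 9 members had an edgeR p under 0.05 for shNELFE, where 2955 of all 15573 genes did.

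MYC was higher in shNELFE than in shCTL in both pairs with HMBA and lower in both pairs without. With HMBA it was 1.76-fold (both compounds) and 2.11-fold (HMBA) as high in shNELFE as in shCTL, and without HMBA 0.922-fold (EPZ-5676) and 0.781-fold (DMSO). Put the other way, HMBA lowered MYC 12.9-fold with EPZ-5676 and 9.03-fold without in shNELFE cells, and 24.6-fold with EPZ-5676 and 24.4-fold without in shCTL cells. The product of shNELFE and HMBA, which tests this difference, was 1.15 ± 0.19 (log2, SE), with an unadjusted p of 0.000161 and an edgeR adjusted p of 0.284, so it did not pass in the 9 libraries, where 0.0128% of all genes (2 genes) did. It did pass in the 8 libraries numbered 2 (1.22; adjusted p 0.00125; 0.24% of genes called), with the replicate number as a block (1.22; 0.00115; 0.238%), with DESeq2 (1.15; 0.000167; 0.148%) and with no filter on low counts (1.14; 0.000145; 0.278%). No member passed for this product with RLE scaling, unscaled totals or limma-voom. The same held when any of the 9 libraries other than shNELFE both-compound replicate 1 was left out. Leaving that library out gives the 8 numbered 2, and the replicate block in the 9 sets the same library apart. The passes in the 8 and with the block are thus not separate results. Neither uses the spread between the only replicates within a group. For MYC the product was reversed with all 16 libraries (-0.77 without and -1.27 with a replicate block, adjusted p 1 in both). The product fit of the 9 libraries also gives the shNELFE effect at each level of HMBA, a step chosen after the values were seen. On MYC it was 0.92 ± 0.14 (log2, SE) with HMBA (edgeR adjusted p 0.0209, where 0.796% of genes were called). Without HMBA it was -0.23 ± 0.14 (edgeR adjusted p 0.7, where 0.0257% were called). These values restate the product and are not separate evidence.

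**Figure D4:**
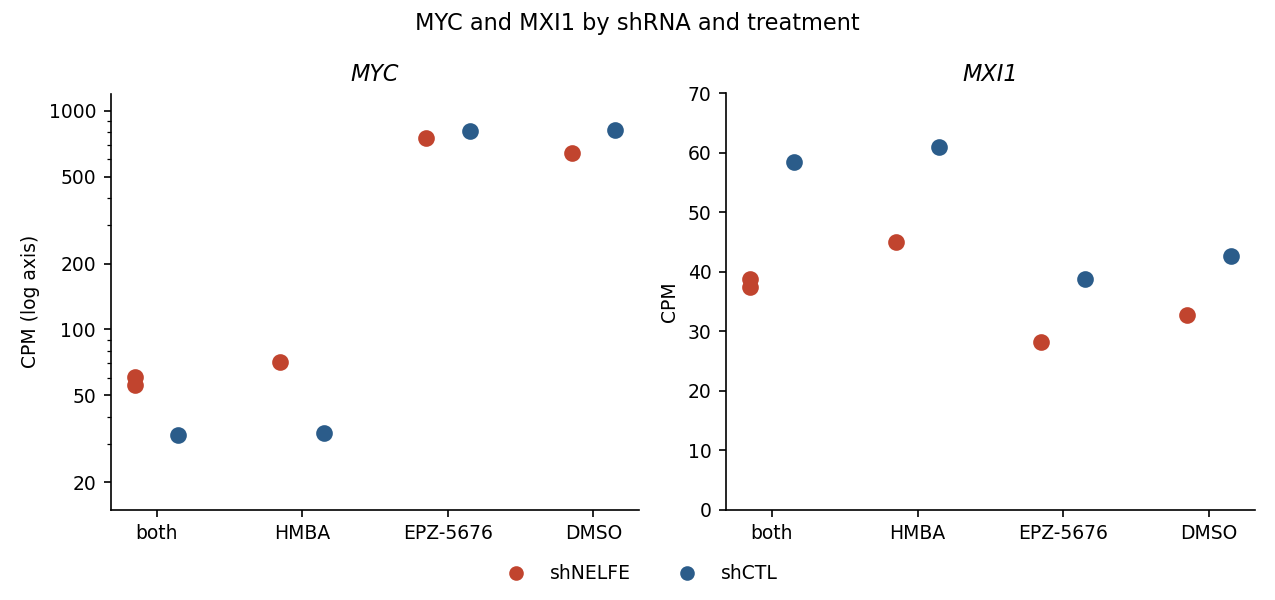
MYC (left, log axis) and MXI1 (right, linear axis) in CPM in each of the 9 libraries by treatment, with shNELFE in red and shCTL in blue. MXI1 is lower in shNELFE under all 4 treatments, and MYC is higher in shNELFE under both treatments with HMBA and lower under both without.

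In the 9 libraries none of the 9 tested members passed for any of the 3 products of shNELFE, HMBA and EPZ-5676, where at most 0.0128% of genes were called. Of the 9, 2 had an unadjusted edgeR p under 0.05 for shNELFE with HMBA, MYC and MNT, where 647 of all 15573 genes did. None of the 9 did for the other products, where 409 genes (EPZ-5676 with HMBA) and 123 genes (shNELFE with EPZ-5676) did. The fall of MNT with HMBA was 4.07-fold with EPZ-5676 and 2.79-fold without in shNELFE, and 2.65-fold with EPZ-5676 and 2.03-fold without in shCTL (product log2 -0.58 ± 0.25, SE; unadjusted p 0.0418, edgeR adjusted p 0.889). For MXD3 the ratio of HMBA to no HMBA was 1.77 with EPZ-5676 and 1.74 without in shNELFE, and 1.20 with EPZ-5676 and 1.21 without in shCTL, with a product of 0.52 ± 0.27 (edgeR adjusted p 0.889).

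EPZ-5676 gave no call among the members. edgeR called 0 of the 9, as did DESeq2 and limma-voom, where edgeR called 0.193% of all genes. An unadjusted edgeR p under 0.05 was found for 1735 of all 15573 genes and for 1 of the 9 members, a like share. That member was MNT, at 0.35 ± 0.15 (log2, SE; unadjusted p 0.0405, edgeR adjusted p 0.423). MNT was higher with EPZ-5676 in 4 of 4 pairs, by 1.52-fold in shNELFE and 1.48-fold in shCTL without HMBA, and by 1.05-fold in shNELFE and 1.14-fold in shCTL with HMBA. Without HMBA alone its change was 0.59 ± 0.19 (edgeR adjusted p 0.588, where 0.00642% of genes were called), and 0.59 ± 0.13 in the 8 libraries numbered 2 (adjusted p 0.0269, where 3.09% of genes were called), a contrast chosen after the values were seen. MYC changed by -0.01 ± 0.20 with EPZ-5676 (edgeR adjusted p 0.988), MAX by 0.13 ± 0.11 and MGA by -0.02 ± 0.16, and these errors leave room for small changes.

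Genes around the network were described from lists written with earlier results of these data known, and their counts describe the lists only. Each list's count with HMBA is to be read against all genes, of which 30.4% were higher and 31.3% lower, with a median log2 fold change of 0.03. The MLX arm is a parallel network in which MLX takes the place of MAX and answers to glucose. With HMBA 2 of its 4 tested genes were higher and 2 lower (median log2 0.27): ARRDC4, an arrestin-like target of this arm, had 70.4 ± 8.30 CPM with HMBA (SD, n = 5) and 16.2 ± 3.08 CPM without (SD, n = 4), and MLX itself had 35.6 ± 3.58 CPM with HMBA and 84.8 ± 4.06 CPM without. MLXIPL, the glucose-responsive partner of MLX, rose by 0.99 ± 0.12 (log2, SE; edgeR adjusted p 2.76e-05). TXNIP, the best known target of the arm, had 1 count in the 9 libraries together and 855 to 5074 counts in each of the other 7.

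Of 13 SIN3 and HDAC corepressor genes, through which MXD proteins repress, 5 rose and 2 fell with HMBA (median log2 -0.01). ING1, a reader of methylated histone H3 in the SIN3 complex, rose 5.22-fold, SAP18 1.67-fold and HDAC1 1.53-fold (edgeR adjusted p 1.27e-07, 1.77e-05 and 0.000263). The scaffold SIN3A had -0.15 (adjusted p 0.322) and SIN3B -0.12 (adjusted p 0.319). Of 11 partners of MGA in PRC1.6, 9 fell and 1 rose (median -0.61): PCGF6, its defining subunit, fell 3.65-fold (edgeR adjusted p 3.54e-07), the ubiquitin ligase RNF2 fell 3.22-fold (2.73e-07), and RYBP rose 3.38-fold (1.73e-07).

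Of 15 MYC cofactors, 8 fell and 1 rose with HMBA (median -0.51), where 31.3% of all genes were lower and 30.4% higher. HCFC1, a chromatin-bound partner of MYC, fell 3.14-fold, the acetyltransferase KAT5 2.29-fold and its scaffold TRRAP 1.84-fold (edgeR adjusted p 1.61e-06, 1.31e-06 and 8.92e-06). Of 17 genes for turnover of the MYC protein, 6 rose and 9 fell (median -0.46), among them TRIM32, a ubiquitin ligase, which fell 7.05-fold, the kinase AURKA, which shields MYCN from degradation and fell 3.01-fold, and the deubiquitinase USP36, which fell 3.08-fold (edgeR adjusted p 1.18e-08, 1.01e-07 and 1.51e-07). Of 9 transcripts listed around MYC on chromosome 8, 8 matched a row and 4 were tested. CASC19 had 5.99 ± 1.51 CPM with HMBA (SD, n = 5) and 88.3 ± 18.4 CPM without (SD, n = 4), a 14.5-fold fall (edgeR adjusted p 6.45e-09). CASC8 fell 2.54-fold and POU5F1B 2.14-fold (adjusted p 0.000158 and 0.0184). PVT1, the long noncoding RNA next to MYC, had -0.12 (log2; edgeR adjusted p 0.316). PVT1, SIN3A, SIN3B and TXNIP here are named because their values stood out once seen. So are CDKN1B, CDKN1C, FN1, COL1A1, the called epithelial markers and the blood cell genes below.

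Genes that MYC is known to activate mostly fell. Of 57 in the list, 43 fell and 3 rose with HMBA, with a median log2 fold change of -0.64, against 31.3% and 30.4% of all genes and a median of 0.03. PPRC1, a coactivator of mitochondrial genes, fell 4.18-fold, the nucleoside transporter SLC29A2 5.16-fold and the ribosome assembly factor GRWD1 2.48-fold (edgeR adjusted p 1.17e-08, 8.07e-08 and 2.33e-07). Another list of 20 classic MYC targets, 19 of them tested, was divided, with 8 higher and 7 lower (median 0.23): E2F2 fell 5.95-fold, CDC25A, the phosphatase that starts the cell cycle kinases, fell 3.86-fold, and IMPDH2, an enzyme of guanine nucleotide synthesis, rose 1.94-fold (edgeR adjusted p 3.54e-08, 1.04e-07 and 1.56e-06). Of 12 genes that MYC is known to repress, 10 rose and 1, CDKN1B, fell (log2 -0.58), with a median of 1.17. CDKN1A, the p21 cell cycle inhibitor, had 884 ± 312 CPM with HMBA (SD, n = 5) and 126 ± 35.1 CPM without (SD, n = 4). CDKN2B, the p15 inhibitor, rose 6.86-fold and the stress gene GADD45A 5.26-fold (edgeR adjusted p 5.09e-08 and 3.29e-08).

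**Figure D5:**
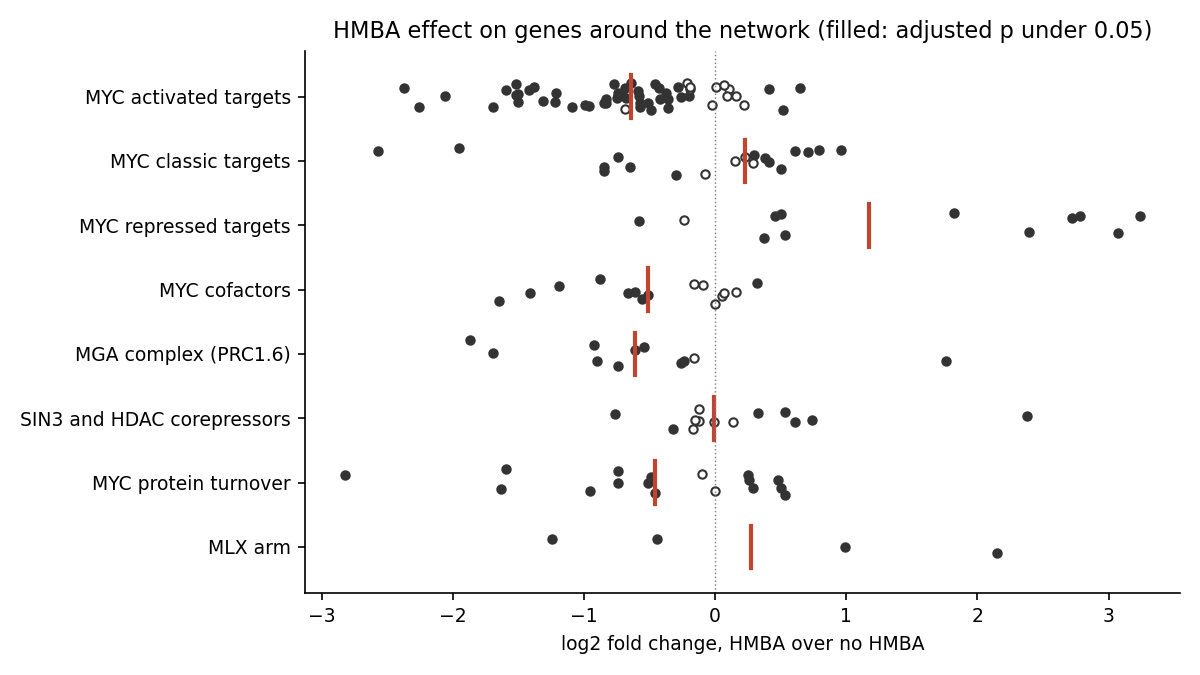
Fitted log2 fold change with HMBA over no HMBA for the tested genes of 8 lists around the network, 1 point per gene, filled where the edgeR adjusted p was under 0.05, with the list median as a red bar. MYC activated targets lie mostly below 0 (43 of 57 called lower) and MYC repressed targets mostly above (10 of 12 called higher), while the classic targets are spread on both sides.

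None of these 9 lists had a call with EPZ-5676, where 0.193% of all genes (30 of 15573) were called, so few or no calls would be found in any such lists. With shNELFE, 2 of 57 activated targets rose, the mitochondrial chaperonin HSPE1 (0.57 ± 0.10, log2, SE) and the replication helicase subunit MCM4 (0.37 ± 0.08), with edgeR adjusted p of 0.0147 and 0.0352, where 0.7% of all genes were called higher and 1.55% lower. IMPDH2, the 1 call among the 19 classic targets, fell by 0.63 ± 0.08 (adjusted p 0.0034). Of the 12 repressed targets 2 rose and 1 fell with shNELFE: CDKN1A rose by 0.85 ± 0.10, CDKN1C, another cell cycle inhibitor, rose by 2.20, and NDRG1, a stress and differentiation gene, fell by 0.97 ± 0.12 (log2; edgeR adjusted p 0.00393, 0.0391 and 0.0042). The other 6 lists had no call with shNELFE.

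Marker lists of other cell types were summed on totals scaled over all 16 libraries. The blood cell sums did not overlap between libraries with and without HMBA and the mesenchymal sums did. The mesenchymal and fibroblast list of 12 genes summed to 62.4 to 102 CPM in the 5 libraries with HMBA and 35.6 to 66.3 CPM in the 4 without, with LUM at 0 in all 9, and 3 of its 7 tested genes were called higher and 1 lower, where 30.4% of all genes were called higher and 31.3% lower. The blood cell list of 8 genes summed to 2.07 to 5.29 CPM with HMBA and 0.485 to 1.25 CPM without, with CD3E at 0. Of the 8, 4 were above 3 counts in some library with HMBA and 1 in some library without. The 3 tested genes, HBB, HBA1 and CD14, were called higher (log2 4.52, 2.13 and 2.11), at levels near the count floor. The filter keeps a gene that is high in 1 group, so the direction of these calls was largely fixed in advance. Of the 10 tested epithelial markers 3 were called higher and 2 lower. CDH1 (log2 1.06), ELF3 (0.78) and CLDN4 (0.65) were higher, with edgeR adjusted p of 8.56e-07, 0.0394 and 0.00289. CDX2, a colon transcription factor, was at -1.68 and KRT18 at -0.53 (log2; edgeR adjusted p 1.06e-06 and 0.0305). Of the 3 marker lists, the mesenchymal one alone had calls with the other factors, FN1 higher with EPZ-5676 (0.64; adjusted p 0.039) and COL1A1 lower with shNELFE (-0.69; adjusted p 0.0372). Their part in the changes of the network was not tested.

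The genes whose level followed MYC most closely over the 9 libraries were sought among 9258 genes with a mean of at least 10 CPM, by Pearson's r of log2 CPM, which here mostly reflects the split between libraries with and without HMBA. The highest were TIGD5 (r = 0.996), TMEM185B (0.995), BTBD6 (0.994), KEAP1 (0.994) and EXOSC3 (0.993), and the lowest OSBPL6 (-0.995), CCNK, ABTB3 and ICAM5 (-0.994 each) and GZF1 (-0.993). Such values were common, with 1561 genes above 0.9 and 1054 below -0.9, and all 9 libraries share 1 cell line and 1 treatment split. TIGD5 had 1.40 CPM with HMBA and 23.6 CPM without on average, and KEAP1, the adaptor that marks NRF2 for degradation, 22.4 CPM with HMBA and 87.7 CPM without.

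In the other 7 libraries the network had another makeup, on totals scaled over all 16 libraries. MXI1 had 4.36 to 21.5 CPM in the 7 and 27.5 to 60.0 CPM in the 9, and MXD4 had 60.0 to 117 CPM in the 7 and 16.9 to 46.1 CPM in the 9. MXD3 (10.3 to 23.4 CPM in the 7, 4.13 to 8.21 CPM in the 9) did not overlap either, while MYC had 26.9 to 186 CPM in the 7 and 32.2 to 818 CPM in the 9. MYCN reached 3.33 CPM in the 7 and at most 0.0626 CPM in the 9. The epithelial marker list summed to 7016 to 32640 CPM in the 7 and 4725 to 8051 CPM in the 9. The mesenchymal and fibroblast list summed to 12.9 to 7931 CPM in the 7 and 35.6 to 102.5 CPM in the 9. In edgeR fits of all 16 libraries 10 members were tested and none was called for HMBA, EPZ-5676 or shNELFE, with or without the replicate number as a block, where 0 of 17625 genes were called for these effects. At an unadjusted p under 0.05 HMBA had 3 of the 10 members and 1676 genes without the block and 4 members and 2952 genes with it, and EPZ-5676 and shNELFE had no member. MYC then changed by -2.51 with HMBA (adjusted p 0.265), and the biological coefficient of variation was 0.933, against 0.135 in the 9 libraries.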

How the data were processed

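Counts were used as deposited by the authors: a table of raw read counts for 60676 Ensembl genes in 16 libraries. The labels' protocols name oligo(dT) purification and the TruSeq Stranded mRNA kit. The submitters' processing notes list hg38 and the tools edgeR, HTSeq (0.6.1p1), Cufflinks (2.1.1) and STAR (2.4.0b) without saying which did what, and neither the annotation release nor the strand setting is stated in the sources at hand. Libraries were grouped by title. Symbols, positions and exon lengths came from GENCODE release 29 on hg38.

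The counts of 9 libraries were fitted with edgeR 4.0.16 (R 4.3.3, limma 3.58.1), with shRNA, HMBA and EPZ-5676 as additive terms, TMM scaling, filterByExpr by group and quasi-likelihood F-tests adjusted by Benjamini-Hochberg over 15573 genes at 0.05. Each product term was added alone, leaving 4 residual degrees of freedom. An SE is the size of the log2 fold change divided by the square root of F. CPM used TMM-scaled totals over the 9, except where 16 libraries are named. Matched pairs, 4 for each factor, agree in the other factors, with replicates averaged. The 9 libraries, the members and the lists were chosen with earlier results of these data known, so NELFE and HEXIM1 describe the 9 and test nothing. All members were named, and from each list up to 3 called genes with the smallest p for HMBA and up to 2 each for EPZ-5676 and shNELFE. Of 201 list entries, 1 (CCAT1) had no matching row. Alternatives were RLE scaling, unscaled totals, no filter on low counts, DESeq2 1.42.0, limma-voom, the 8 libraries numbered 2, all 16 libraries, alone or with a block for replicate number, that block in the 9, leaving out each library, and, for levels, the longest transcript. Effects of 1 factor at each level of another were added after the data were seen. Fits were tested on simulated data in which 200 genes were changed.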

Additional observations from a re-analysis of the deposited data

Results flagged for a closer look

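The effect of shNELFE on MYC ran in opposite directions in every pair with HMBA and every pair without. The difference between these effects was 1.15 on the log2 scale, with an adjusted p of 0.284 from edgeR in the 9 libraries.

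The effect of shNELFE on MNT likewise ran down in both pairs with HMBA and up in both without, a difference of -0.58 (log2; edgeR adjusted p 0.889). For MXD3 the effect of EPZ-5676 ran down in both shNELFE pairs and up in both shCTL pairs, a difference of -0.26 (log2; edgeR adjusted p 1).

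MYCN, with at most 1 count in any of the 9 libraries, reached 3.33 CPM in a library outside them, the one labelled shNELFE HMBA replicate 1.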

How the results depend on the processing

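When any of the 9 libraries was left out, 7 to 9 of the 9 members and 8194 to 10683 genes were called for HMBA. With all 16 libraries, with or without the replicate block, 0 members and 0 genes were called for HMBA, for EPZ-5676 and for shNELFE. Same-numbered libraries deviated together in most but not all of 28 pairs of groups (correlations 0.0661 to 0.96, median 0.431, over 0.1 in 24), a hint from the data in which the 7 libraries that stood apart share the number 1. The labels state no shared culture or day, so the numbers were not taken as pairing the libraries. In the 9 libraries the replicate block sets shNELFE both-compound replicate 1 apart, and the call counts lay near those of the 8 libraries numbered 2.

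For EPZ-5676, 30 genes were called in the 9 libraries, 18 with unscaled totals, 248 with no filter, 235 with DESeq2, 578 in the 8 libraries numbered 2, 577 with the replicate block, and 1 to 578 with a library left out, and members stayed at 0 calls. For shNELFE, 1 member was called in the 9, 2 in the 8 libraries numbered 2 and with the replicate block (MXD4 at adjusted p 0.0485), and 0 to 2 with a library left out. Over all genes shNELFE gave 351 calls, 767 with no filter, 916 with DESeq2, 1929 in the 8, 1920 with the replicate block, and 79 to 1929 with a library left out. The largest counts came without shNELFE both-compound replicate 1, and the cause was not tested.

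For the product of shNELFE and HMBA, MYC was called (1 member) with no filter, with DESeq2, in the 8 and with the replicate block, and 0 to 1 members with a library left out. Over all genes 2 were called in the 9, 75 with no filter, 23 with DESeq2, 37 in the 8, 37 with the replicate block, 0 with all 16, and 0 to 37 with a library left out. For the product of EPZ-5676 and HMBA, 0 genes were called in the 9, 5 with no filter, 2 with DESeq2, 11 in the 8, 5 with the replicate block, 2 with all 16 and a block, and 0 to 11 with a library left out. For the product of shNELFE and EPZ-5676 the counts were 0 in the 9, 4 with no filter, 2 with DESeq2, 1 in the 8, 1 with the replicate block, and 0 to 1 with a library left out. Members had 0 calls for both.

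Log2 fold changes changed sign with all 16 libraries, without and with the block, for MYC under shNELFE (-0.58 and -0.77) and under the product of shNELFE and HMBA (-0.77 and -1.27), MYCL under EPZ-5676 (0.45 and 0.43), MXD1 under shNELFE (0.32 and 0.18) and MXD4 under EPZ-5676 (0.09 and 0.05). MXD4 under shNELFE changed sign without the block (-0.06) and MXI1 under shNELFE with it (0.29). Values near 0 changed sign for MYC under EPZ-5676 with limma-voom (0.02), MYCL under shNELFE with unscaled totals (-0.01), and MGA under EPZ-5676 in the 8 libraries and with the replicate block (0.04 each). With HMBA alone and the 8 libraries, MAX under shNELFE (0.07) and MXD3 under EPZ-5676 (-0.03) changed sign. With a library left out, EPZ-5676 gave -0.20 to 0.22 for MYC, -0.17 to 0.06 for MYCL, -0.06 to 0.15 for MXD3 and -0.12 to 0.11 for MGA, and shNELFE gave -0.07 to 0.19 for MYCL. Most groups hold 1 of the 9 libraries, so the spread is that around an additive model, and depth limits MYCL, MXD1 and MXD3 most.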

Other observations

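Levels of 3 members in the 7 libraries numbered 1 that stood apart belong to no comparison, and these libraries are named by their labels only. MYC had 26.9 CPM in the library labelled shNELFE HMBA, 28.8 CPM in shNELFE EPZ-5676, 186 CPM in shNELFE DMSO, 167 CPM in shCTL with both compounds, 165 CPM in shCTL HMBA, 32.9 CPM in shCTL EPZ-5676 and 179 CPM in shCTL DMSO. MXD1, in the same order of libraries, had 23.7, 23.1, 5.35, 2.93, 6.60, 21.6 and 2.13 CPM. MYCN, again in that order, had 3.33, 2.32, 0.0973, 0, 0.0468, 2.69 and 0 CPM. Low MYC, high MXD1 and MYCN above 2 CPM thus fell together in the libraries labelled shNELFE HMBA, shNELFE EPZ-5676 and shCTL EPZ-5676, which carry no single treatment label.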
